A study of Mus musculus with 22 samples.

Results

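The 10 genes described here, Dazl, Mael, Asz1, Sycp3, Tex19.1, Tex19.2, Tex101, Slc25a31, Stk31 and Taf7l, are germline genes that are kept silent in most somatic cells. They were chosen by name, and with measured values in view, since Tex19.2 was picked for being raised in H2A.Z KD blastocysts; they make up 10 of the 55335 genes of the table. All 10 names were found once. The rule set no threshold, so there are no genes just inside or outside it.

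RNA-seq was carried out on 22 libraries of mouse embryos, each made from a pool of 15 embryos of B6D2F1 parents. Each of the 3 stages had 4 control libraries; the H2A.Z KD had 3 libraries of 2-cell embryos, 3 of morulae and 4 of blastocysts. Harvest was at 43 to 44 h after hCG for 2-cell embryos, at 78 h for morulae and at 94 h for blastocysts. KD zygotes had received about 10 pL of a mix of 3 pairs of siRNA against H2A.Z at 20 µM, 20 to 22 h after hCG; the qPCR of the study used noninjected controls, but the controls of these libraries are not described, so injection and KD cannot be told apart. The cDNA was made by Smart-seq2, which copies polyadenylated RNA along its full length, with 16 to 18 cycles of amplification, and was read as pairs of 150 bp.

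In mammals, germline genes are switched on in primordial germ cells and during meiosis and are silenced elsewhere by DNA methylation, by histone methylation and by a Polycomb complex that E2F6, MGA and PCGF6 bring to their promoters. Oocytes store transcripts of many of them, and the embryo degrades this maternal RNA while its own genome becomes active. Some are also transcribed by preimplantation embryos and pluripotent cells, and Tex19.1 is a known example.

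Values are FPKM, fragments per kilobase of transcript, scaled to the total of the library, so levels of different genes can be set side by side per length. Fold changes and their SE are on the scale of log2(FPKM + 1) after division by a factor per library, which understates changes of low genes. A gene was tested with limma where 3 or more libraries of the comparison reached an FPKM of 1, and a gene was called at an adjusted p under 0.05 with an absolute log2 fold change above 1. In pooled embryos, fewer cells of a type and less RNA per cell cannot be told apart.

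The knockdown was seen in the level of H2afz, the gene of H2A.Z.1. In 2-cell embryos, H2afz was at 1244, 1236, 905 and 1178 FPKM in control and at 415, 139 and 112 FPKM in KD libraries. In morulae it was at 1158, 1336, 1511 and 1421 FPKM in control and at 30.3, 25.7 and 29.0 FPKM in KD libraries, and in blastocysts at 2656, 2431, 1945 and 2055 FPKM against 64.2, 67.2, 53.2 and 57.6 FPKM. KD libraries lay below all control libraries at each stage, and 2-cell KD replicate 1 kept the highest level of the 2-cell KD libraries. In 2-cell embryos the difference was -2.53 (SE 0.38, limma adjusted p = 0.543) and H2afz was not called. H2afv, which encodes H2A.Z.2 and was not the named target, had a mean of 101 ± 8.75 (SD, n = 4) FPKM in control and 11.3 ± 1.51 (SD, n = 3) FPKM in KD morulae, and 57.5 ± 6.40 (SD, n = 4) against 15.3 ± 3.99 (SD, n = 4) FPKM in blastocysts. In 2-cell embryos it had 110 ± 8.96 (SD, n = 4) against 88.9 ± 7.56 (SD, n = 3) FPKM, with overlap, and was not called (log2 fold change -0.23, SE 0.16, limma adjusted p = 0.840). It was called lowered at the later 2 stages (limma log2 fold change -2.93, SE 0.15, adjusted p = 2.93e-06, and -1.86, SE 0.22, adjusted p = 7.95e-05), so a loss of H2afz alone and a loss of both cannot be told apart there.

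No library stood far from its group, and no pair of libraries was identical. The mean correlation of a library with the others of its group, over log2(FPKM + 1), lay between 0.970 and 0.988. The depth in reads is unknown. In single-exon genes, FPKM times length was measured in steps, with its most common value in the library as the step. Only 8.66% to 24.4% of low values lay within 0.05 of a whole number of steps, so depth estimated this way was not used. Replicate numbers of a stage fell into ranges, and how far these ranges grouped the libraries differed between stages, as given at the end. In control embryos of the earliest stage, the level of Tex19.1 differed between the ranges, as given below. Whether germline genes differed between ranges was not tested.

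Markers of the stages went with the labels. The summed FPKM of 10 oocyte markers had a median of 937 in control 2-cell embryos, led by Oosp1, and of 7.48 and 2.39 in control morulae and blastocysts, led by Zp3. The 8 blastocyst markers summed to a median of 5.49, 238 and 1316 FPKM in control 2-cell embryos, morulae and blastocysts, and to 5.13, 121 and 833 FPKM in KD embryos. Of these 8 markers, Nanog was called lowered in KD morulae (log2 fold change -2.23, SE 0.37, limma adjusted p = 0.00647) and Krt18 in KD blastocysts (log2 fold change -1.02, SE 0.18, limma adjusted p = 0.00126). The paper reports that far fewer KD than control embryos formed blastocysts. A KD effect and a difference in the progress or selection of the embryos therefore cannot be told apart in blastocysts. The 10 sperm markers summed to at most 9.40 FPKM in any library, with Ldhc as the most abundant in 2-cell embryos and Akap4, Pgk2 and Spem1 listed at 0 in all morulae and blastocysts. The 8 cumulus markers summed to at most 3.41 FPKM in 2-cell and to at most 0.168 FPKM in later libraries, with Tnfaip6 as the most abundant in 2-cell embryos and Fshr and Ptx3 at 0 in every group. The 8 somatic markers summed to at most 7.07 FPKM, with Pecam1 as the most abundant in each group, and Col1a2 and Hbb-bs were listed at 0 in every group.

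Tex19.1 and Tex19.2 encode a pair of mammal-specific proteins, of which Tex19.1 is known to restrain retrotransposons in germ cells and placenta and to bind the ubiquitin ligase UBR2. Both lie on chromosome 11 of GRCm38, Tex19.2 at chr11:121116215-121118677 on the minus strand and Tex19.1 at chr11:121146143-121148319 on the plus strand, so that they point away from each other across 27465 bp. No other annotated gene lay between them or within 5000 bp of either. The longest transcripts of Tex19.1 and Tex19.2, of 1745 and 2046 bases in this order, were 81.3% identical over 1562 aligned bases. Yet they shared no run of 75 bases with each other or with any other annotated transcript, on either strand.

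**Figure D1:**
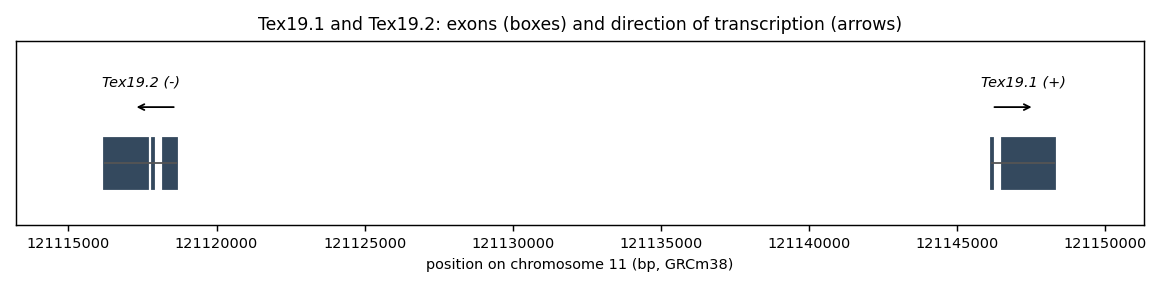
Exons (boxes) and direction of transcription (arrows) of Tex19.2 and Tex19.1 against position on chromosome 11 in bp. The genes are transcribed away from each other and are 27465 bp apart.

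Tex19.1 had the highest mean FPKM, a level per length, of the 10 genes in all 6 groups but KD 2-cell embryos. In 2-cell embryos it was at 21.3, 17.7, 105 and 67.5 FPKM in control replicates 1, 2, 4 and 5 and at 16.7, 24.4 and 31.9 FPKM in KD replicates 1, 2 and 4. Control replicates 4 and 5 were well above replicates 1 and 2, and the KD libraries spanned the lower of these levels. The groups overlapped, with a log2 fold change of -0.70 (SE 0.51, limma adjusted p = 0.848). In morulae, it was at 176, 125, 156 and 161 FPKM in control and at 105, 109 and 175 FPKM in KD libraries, again with overlap (log2 fold change -0.16, SE 0.21, limma adjusted p = 0.652).

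In blastocysts, Tex19.1 was at 56.0, 115, 167 and 134 FPKM in control replicates 1, 4, 5 and 6 and at 240, 266, 349 and 251 FPKM in the KD replicates of the same numbers. Every KD library was above every control library, and control replicate 1 was the lowest of all. The mean was 118 ± 46.7 (SD, n = 4) FPKM in control and 276 ± 49.7 (SD, n = 4) FPKM in KD blastocysts, a ratio of 2.34. As this contrast chose the genes, it is a description and was not tested.

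Tex19.2 was much lower per length, in control as in KD embryos. In 2-cell embryos it was at 0.0983, 0.342, 0.459 and 0.211 FPKM in control and at 0.0181, 0.111 and 0.0541 FPKM in KD libraries. At these levels it did not pass the filter, and an exact two-sided permutation test gave p = 0.0857, where the smallest p possible is 0.0286. In morulae it was at 5.48, 1.61, 1.94 and 2.08 FPKM in control and at 1.23, 0.622 and 3.09 FPKM in KD libraries. Control replicate 1 was the highest and the groups overlapped (log2 fold change -0.42, SE 0.35, limma adjusted p = 0.434).

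In blastocysts, Tex19.2 was at 0.977, 3.32, 5.78 and 4.16 FPKM in control and at 15.8, 10.4, 24.6 and 19.5 FPKM in KD libraries. All 4 KD libraries were above all control libraries. The mean was 3.56 ± 2.00 (SD, n = 4) FPKM in control and 17.6 ± 5.99 (SD, n = 4) FPKM in KD blastocysts, a ratio of 4.94; this is the difference for which the gene was chosen and carries no test. Tex19.2 stood at a median of 2.99% of the FPKM of Tex19.1 in control and at 6.81% in KD blastocysts, with ranges of 1.74% to 3.45% and 3.90% to 7.78% that did not overlap. At the earlier stages the KD median was the lower one, with overlap. Medians were 0.449% in control and 0.170% in KD 2-cell embryos, and 1.29% and 1.18% in morulae. Markers of the 2-cell stage were also higher in the KD blastocyst libraries: the summed FPKM of 6 such genes was 2.76, 3.42, 0.636 and 2.32 in control and 8.60, 20.0, 4.63 and 29.3 in KD blastocysts, led by Tcstv3. Of these 6, 3 were tested and 2 called raised, where 6.06% of all genes were. They were Zfp352 (log2 fold change 1.56, SE 0.29, limma adjusted p = 0.00157) and Tcstv3 (log2 fold change 2.01, SE 0.56, limma adjusted p = 0.0145). Of the 6, 0 had a mean of 1 FPKM or more in control and 3 in KD blastocysts. Passing the filter thus leaned on the KD libraries, and these calls do not support a direction. The part of these markers in the level of the Tex19 genes was not tested.

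**Figure D2:**
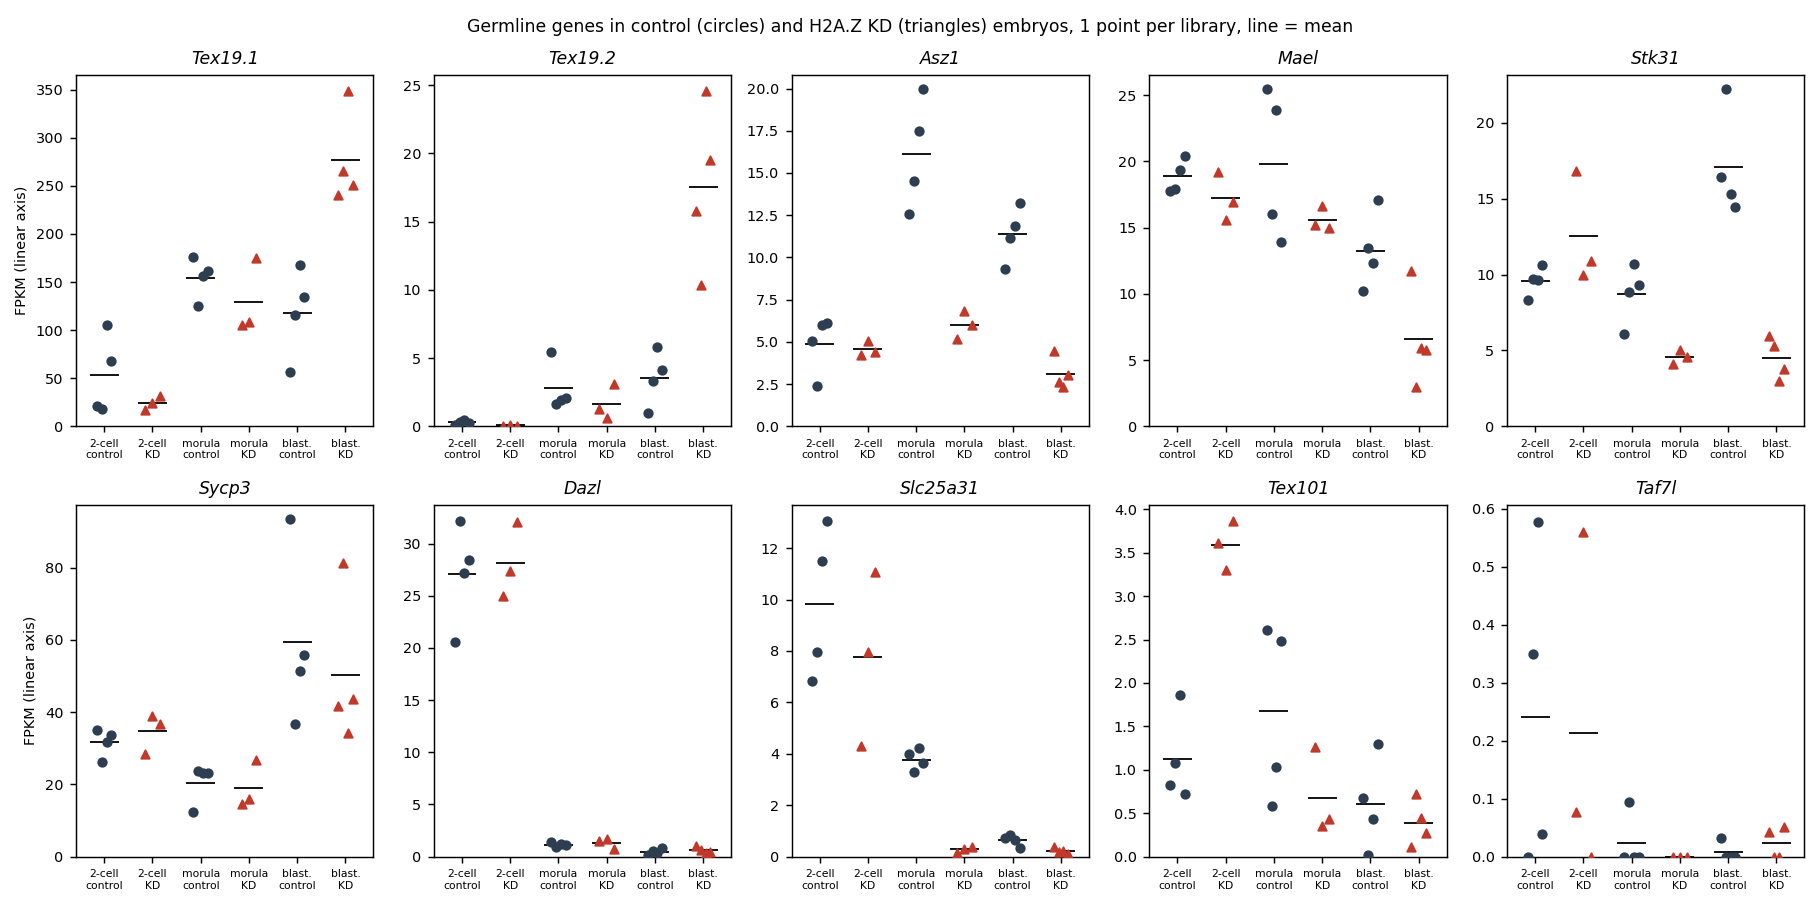
FPKM of each of the 10 genes on linear axes that start at 0, with 1 point per library (circles, control; triangles, H2A.Z KD) and a line at the mean of each of the 6 groups. Tex19.1 and Tex19.2 reach 240 to 349 and 10.4 to 24.6 FPKM in KD blastocysts, above all control blastocysts, while Asz1 and Stk31 lie below theirs.

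Asz1, Mael and Stk31 act in the nuage, the germ granules in which piRNAs against transposons are made; Asz1 anchors them at mitochondria. Asz1 was at 12.6, 14.5, 17.5 and 20.0 FPKM in control morulae and at 5.17, 6.81 and 6.02 FPKM in KD morulae. All KD libraries were below all control libraries. Asz1 was called lowered (log2 fold change -1.17, SE 0.22, limma adjusted p = 0.00903). Without the filter on low FPKM the fold change was the same, at -1.17, but the call was lost (adjusted p = 0.0642). Over 13 other settings the fold change ranged from -1.33 to -0.91 and the adjusted p from 0.00271 to 0.0642, and the call was lost in 2.

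Asz1 and Slc25a31 were the 2 of the 9 tested members that were called in KD morulae, both lowered, where 3.52% of 10989 genes were called. Slc25a31 entered this test through the control libraries alone, where it was high, so the count does not support a direction of the members. Taf7l was the member that was not tested. In blastocysts Asz1 was at 9.29, 11.2, 11.8 and 13.2 FPKM in control and at 4.44, 2.60, 2.35 and 3.03 FPKM in KD libraries. The groups did not overlap, and the mean of the KD libraries was 3.66 times lower, with no test. In 2-cell embryos, it was at 2.39 to 6.13 FPKM over all 7 libraries, and the groups overlapped.

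Stk31, a kinase with a Tudor domain, was at 6.09, 8.82, 10.7 and 9.33 FPKM in control and at 4.12, 5.02 and 4.56 FPKM in KD morulae. The groups did not overlap, but the gene was not called (log2 fold change -0.68, SE 0.22, limma adjusted p = 0.0661). In blastocysts it was at 16.5, 22.2, 15.3 and 14.4 FPKM in control and at 5.94, 5.30, 3.01 and 3.75 FPKM in KD libraries. Here too every KD library was below every control library, with means of 17.1 ± 3.51 (SD, n = 4) and 4.50 ± 1.35 (SD, n = 4) FPKM. Mael, which is needed for silencing of transposons in germ cells, was at 10.2, 13.5, 12.3 and 17.1 FPKM in control and at 11.8, 2.97, 5.88 and 5.75 FPKM in KD blastocysts. KD replicate 1 lay within the control range and the other 3 KD libraries below it. In the 14 libraries of 2-cell embryos and morulae, Mael was at 13.9 to 25.4 FPKM, and it was not called in KD against control embryos at either stage.

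Sycp3, a protein of the axis of meiotic chromosomes, was at 93.3, 36.7, 51.4 and 55.9 FPKM in control and at 41.7, 81.3, 34.1 and 43.5 FPKM in KD blastocysts. The groups overlapped. It was also at 12.2, 23.6, 23.1 and 23.0 FPKM in control morulae, where replicate 1 lay far below the others. Sycp3 overlaps Chpt1, a gene of phospholipid synthesis on the opposite strand, over 660 exonic bases, and 38.4% of its runs of 75 bases were also found in Chpt1 transcripts. Smart-seq2 does not mark the strand, so reads of these bases cannot be assigned, and the level of Sycp3 is uncertain. Chpt1 was at 262 FPKM in control morula replicate 1 and at 33.0, 42.0 and 80.9 FPKM in the others.

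Dazl, an RNA-binding protein that promotes translation in germ cells, was higher in every 2-cell library than in any morula or blastocyst library. It was at 20.6, 32.1, 27.1 and 28.5 FPKM in control and at 25.0, 27.4 and 32.0 FPKM in KD 2-cell embryos, and at 1.36, 0.952, 1.17 and 1.09 FPKM in control and 1.49, 1.64 and 0.745 FPKM in KD morulae. In blastocysts it was at 0.186, 0.532, 0.342 and 0.849 FPKM in control and at 1.04, 0.652, 0.296 and 0.436 FPKM in KD libraries. Control and KD embryos overlapped at each stage.

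Slc25a31 encodes the germ cell form of the carrier that swaps ADP and ATP across the inner mitochondrial membrane. It was at 3.99, 3.27, 4.20 and 3.64 FPKM in control morulae and at 0.132, 0.308 and 0.387 FPKM in KD morulae. The KD libraries were all far below the control libraries. It was called lowered (log2 fold change -1.83, SE 0.16, limma adjusted p = 0.000321), and over 13 other settings the fold change ranged from -3.31 to -1.74 with the call kept in each. It passed the filter through the control morulae alone and had to differ if it passed; without the filter it was also called (adjusted p = 0.0110, the highest of these settings). In 2-cell embryos, it was at 6.84, 7.96, 11.5 and 13.0 FPKM in control and at 4.32, 7.95 and 11.1 FPKM in KD libraries, with overlap, and in blastocysts at 0.346 to 0.839 and 0.106 to 0.384 FPKM, also with overlap.

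In morulae and blastocysts, the somatic relatives of Slc25a31 were at higher FPKM, a level per length. In 2-cell embryos this did not hold for Slc25a4, with means of 7.38 ± 2.23 (SD, n = 4) FPKM in control and 5.41 ± 1.06 (SD, n = 3) FPKM in KD libraries, which overlapped those of Slc25a31. In morulae Slc25a4 had 141, 143, 196 and 204 FPKM in control and 87.2, 83.4 and 130 FPKM in KD morulae; the groups did not overlap and it was not called (log2 fold change -0.65, SE 0.24, limma adjusted p = 0.0944). In blastocysts, Slc25a4 differed by -0.92 (SE 0.17, limma adjusted p = 0.00155), short of the size needed for a call. Slc25a5 was at 694 to 905 FPKM in the 7 morula libraries and overlapped (log2 fold change -0.03, SE 0.16, limma adjusted p = 0.909).

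Tex101 encodes a surface protein of germ cells. It was at 0.822, 1.08, 1.87 and 0.723 FPKM in control and at 3.61, 3.30 and 3.86 FPKM in KD 2-cell embryos. All 3 KD libraries were above all control libraries (log2 fold change 1.18, SE 0.21), but with limma the adjusted p was 0.588, and the exact two-sided permutation test gave p = 0.0286, the smallest it can give. In morulae it was at 2.62, 0.584, 1.03 and 2.48 FPKM in control and at 1.26, 0.348 and 0.427 FPKM in KD libraries, with overlap. Ly6k, which encodes a partner of Tex101, did not pass the filter in 2-cell embryos or morulae. Taf7l, a germ cell form of the transcription factor subunit TAF7, did not exceed 0.578 FPKM in any library and was listed at 0 in all 3 KD morulae, whereas Taf7 itself was at 54.7 to 98.5 FPKM in 2-cell embryos and morulae.

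Among 12160 genes tested in 2-cell embryos, 0 were called in KD against control embryos (0%), members and H2afz included, so this test did not find the knockdown itself. Of these genes, 701 had an unadjusted limma p under 0.05, where no change in any gene would give a share of about 0.05. Leaving out 2-cell control replicate 2 gave 1 call, and leaving out 2-cell KD replicate 1 gave 3.

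The KD effect in morulae minus that in 2-cell embryos was called for 2 of 9 tested members, against 1.25% of 14605 genes. It was -1.75 (SE 0.37, limma adjusted p = 0.0299) for Tex101 and -1.55 (SE 0.33, limma adjusted p = 0.0311) for Slc25a31. Over 19 other settings the adjusted p ranged from 0.0139 to 0.102 for Tex101 and from 0.00708 to 0.0944 for Slc25a31, and without the filter on low FPKM neither was called. With a pseudocount of 0.1 the call of Tex101 was lost (adjusted p = 0.0656). Leaving out 1 library at a time lost the call of Tex101 in 5 of 14 cases, with adjusted p of 0.0693 and 0.0612 without 2-cell KD replicates 1 and 4, 0.0524 without morula control replicate 8, and 0.0825 and 0.0592 without morula KD replicates 2 and 6. That of Slc25a31 was lost in 8 of 14, with adjusted p of 0.0512 and 0.0556 without 2-cell control replicates 1 and 2, 0.0651 and 0.0612 without 2-cell KD replicates 2 and 4, 0.0652 and 0.0612 without morula control replicates 7 and 8, and 0.0863 and 0.0703 without morula KD replicates 1 and 2. Leaving out 2-cell KD replicate 4, morula control replicate 8 or morula KD replicate 2 left 0 members called, and leaving out morula control replicate 1 gave 4. For Asz1 and Stk31 the difference was -1.20 (SE 0.34, limma adjusted p = 0.0937) and -1.08 (SE 0.32, limma adjusted p = 0.103). Whether the KD effect differed between morulae and blastocysts was not tested, since the blastocysts chose the genes.

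From control 2-cell embryos to control morulae, 3 of 9 tested members were called raised and 2 lowered, where 62.2% of 13655 genes were called. Asz1 rose by 1.57 (SE 0.25), Tex19.1 by 1.88 (SE 0.43) and Tex19.2 by 1.44 (SE 0.22) on the log2 scale, with limma adjusted p of 9.97e-05, 0.00138 and 6.01e-05. Tex19.2 entered this test through the morulae alone, where it was high; without the filter it was also called (adjusted p = 0.00169, the highest of 14 other settings). Dazl fell by 3.68 (SE 0.17, limma adjusted p = 1.98e-09) and Slc25a31 fell by 1.14 (SE 0.18, limma adjusted p = 9.03e-05). In KD embryos, 1 of 8 tested members was called raised and 4 lowered, where 63.6% of 12690 genes were called: Tex19.1 rose by 2.45 (SE 0.28), and Dazl, Slc25a31, Tex101 and Stk31 fell by 3.61, 2.63, 1.44 and 1.18. Slc25a31 passed the filter here through the 2-cell embryos alone, and Tex101 reached 1 FPKM in all 3 of these and in 1 of 3 KD morulae, so both had to be high in 2-cell embryos to be tested; without the filter both were also called (adjusted p = 0.00116 and 0.00324). The share of members called is near that of all genes in both. The number of members called between KD stages fell from 5 to 3 without 2-cell KD replicate 1, where Stk31 was short of a call, at a log2 fold change of -0.99, and Slc25a31 was no longer tested. Without 2-cell KD replicate 2 or 4 it was 4, again with Slc25a31 not tested.

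From control morulae to control blastocysts, 2 of 8 tested members were called, where 26.2% of 11849 genes were called. Sycp3 rose by 1.37 (SE 0.33, limma adjusted p = 0.00361), with the uncertainty from Chpt1 given above, and Slc25a31 fell by 1.59 (SE 0.15, limma adjusted p = 4.47e-06). Slc25a31 passed the filter through the morulae alone. Without the filter it was also called (limma adjusted p = 0.000141). Dazl differed by -0.59 (SE 0.15, limma adjusted p = 0.00439), short of the size needed. With a pseudocount of 0.1 it was called lowered (log2 fold change -1.31, limma adjusted p = 0.00678). Tex19.2, with 1.61 to 5.48 FPKM in control morulae and 0.977 to 5.78 FPKM in control blastocysts, overlapped and was not tested here, as the control blastocysts took part in its choice.

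The order of the mean levels per length shifted with the stage. In control 2-cell embryos Tex19.1 (53.0 ± 41.7 FPKM, SD, n = 4), Sycp3 (31.6 ± 3.93) and Dazl (27.1 ± 4.82) led, and the range of Tex19.1 held those of both others. In control morulae Tex19.1 (154 ± 21.5) was followed by Sycp3 (20.5 ± 5.53), Mael (19.8 ± 5.69) and Asz1 (16.1 ± 3.25), which overlapped among themselves. In control blastocysts Tex19.1 (118 ± 46.7) and Sycp3 (59.3 ± 24.1) overlapped, and Stk31 (17.1 ± 3.51), Mael (13.3 ± 2.87) and Asz1 (11.4 ± 1.63) came next. In KD blastocysts, Tex19.1 (276 ± 49.7, n = 4) lay above all others and Tex19.2 (17.6 ± 5.99) followed Sycp3 (50.2 ± 21.1).

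Other germline genes were taken from 3 lists, of 22 genes of the piRNA pathway, 38 of meiosis and 13 regulators of germ cells. In KD morulae, 1 of 31 tested was called raised and 3 lowered, where 0.992% and 2.53% of all genes tested were, and the median log2 fold change was -0.26 against 0.02 over all genes tested. The raised gene was Hormad1, a protein of meiotic chromosome axes, at 14.6, 11.5, 17.6 and 14.7 FPKM in control and 44.0, 45.0 and 33.0 FPKM in KD libraries (log2 fold change 1.54, SE 0.18, limma adjusted p = 0.00152). The lowered genes were Gtsf1 (-1.44, SE 0.30, limma adjusted p = 0.0132), Tdrd12 (-1.40, SE 0.27, limma adjusted p = 0.0104) and Gtsf1l (-1.36, SE 0.19, limma adjusted p = 0.00296), all of the piRNA pathway, of which 3 of 11 tested were lowered and 0 raised. Without the filter the calls of Gtsf1 and Tdrd12 were lost (adjusted p = 0.102 and 0.0842). Whether these counts exceed the shares of all genes was not tested.

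In KD blastocysts, where 13.7% of 11828 genes were called, 7 of 29 tested germline genes were called, all lowered, and the median was -0.39 against 0.00 over all genes. The 3 with the largest change were Rnf17, a Tudor protein of germ granules (-1.98, SE 0.21, limma adjusted p = 4.77e-05), Hormad2 (-1.86, SE 0.16, limma adjusted p = 1.26e-05) and Gtsf1 (-1.74, SE 0.23, limma adjusted p = 0.000156). Rnf17 had a mean of 10.0 ± 0.826 (SD, n = 4) FPKM in control and 1.82 ± 0.725 (SD, n = 4) FPKM in KD blastocysts. These groups did not overlap. Of the 7 called genes, Hormad2, Sohlh2 and Prdm14 passed the filter through the control libraries alone, where they were high, so the count does not support a direction. Gtsf1l was at 79.5, 63.3, 48.8 and 49.3 FPKM in control and at 23.1, 23.2, 12.5 and 22.3 FPKM in KD blastocysts, also without overlap. Called or not, 14 of the 29 had a limma adjusted p under 0.05 in blastocysts. The share of all genes at this adjusted p was not counted, so the 14 cannot be set against it. Of the 14, Hormad1 (0.90, SE 0.29, limma adjusted p = 0.0274) and Taf4b (0.58, SE 0.19, limma adjusted p = 0.0322) were higher and all others lower. Those lower include Hormad2, Sohlh2 and Prdm14, so this count does not support a direction either. In 2-cell embryos, 0 of 46 tested were called. Of the differences between the KD effects in morulae and 2-cell embryos, 2 of 51 were called, against 1.25% of all genes, Gtsf1l (-1.54, SE 0.28, limma adjusted p = 0.0149) and Hormad1 (1.30, SE 0.28, limma adjusted p = 0.0325). Without the filter the call of Hormad1 was lost (adjusted p = 0.0864), which left 1. The count was also 1 in 7 of 14 fits with 1 library left out, and it was 5 without morula control replicate 1 and 5 with FPKM as deposited.

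**Figure D3:**
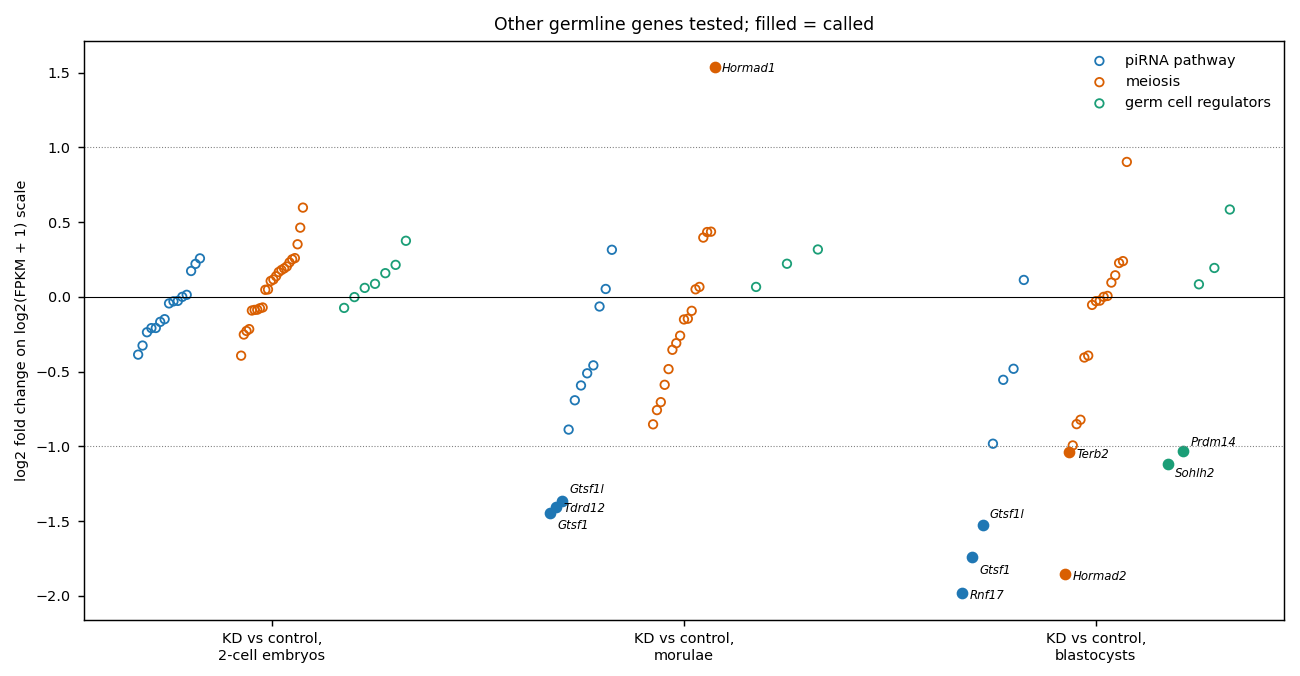
Log2 fold change of KD against control embryos on the log2(FPKM + 1) scale for the tested genes of 3 germline lists, 1 point per gene, filled where called, with dotted lines at 1 and -1. Hormad1 lies at 1.54 in morulae, and all 7 called genes of blastocysts lie below -1.

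Between stages, 7 of 49 tested other germline genes were called raised and 22 lowered from control 2-cell embryos to morulae, where 32.1% of all genes tested were raised and 30.1% lowered. In KD embryos 8 and 27 of 46 were called, where 33.1% and 30.5% of all genes were; without 2-cell KD replicates 1, 2 and 4 in turn, 18, 20 and 19 were called in all, as fewer genes passed the filter. Of the lowered genes, 14 of 22 in control and 16 of 27 in KD embryos reached 1 FPKM in 2-cell libraries alone, as did 1 of 7 and 1 of 8 raised genes in morulae alone, so these counts rest in part on the filter. The median log2 fold change was -0.82 in control and -1.22 in KD embryos, against 0.10 and 0.12 over all genes. The largest changes in control embryos were the rises of Majin (2.69), Gtsf1l (2.63) and Trip13 (2.28) and the falls of Brdt (-6.96), Tex11 (-4.34) and Ccdc36 (-3.21). In KD embryos they were those of Trip13 (2.38), Rec114 (1.70) and Majin (1.53) and of Brdt (-6.59), Tex11 (-4.41) and Meioc (-3.54). In control embryos Majin passed the filter through the morulae alone, and Tex11 and Ccdc36 through the 2-cell embryos alone. Meioc passed it through the 2-cell embryos alone in KD embryos. Without the filter each was also called (limma adjusted p = 1.19e-05, 4.18e-07, 4.34e-07 and 3.28e-05). From control morulae to blastocysts 4 of 33 were called raised and 8 lowered, where 13.4% and 12.9% of all genes were, led by Stra8 (1.25), Prdm14 (1.09), Sohlh2 (1.07), Tex12 (-2.32), Nanos3 (-2.10) and Majin (-1.80). Of these, Stra8, Prdm14 and Sohlh2 passed the filter through the blastocysts alone and Nanos3 through the morulae alone.

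Genes of the complexes that silence germline genes, 25 in the list, were tested in the same way. In KD against control embryos 0 of 23, 0 of 21 and 0 of 23 tested were called with limma in 2-cell embryos, morulae and blastocysts, where 0%, 3.52% and 13.7% of all genes were. Some differences were short of the size needed for a call. In blastocysts 18 of 23 had a log2 fold change above 0, where 50.3% of all genes did, with a median of 0.21 against 0.00. In all, 7 of the 23 had a limma adjusted p under 0.05. Over all genes only the looser limit of an unadjusted limma p under 0.05 was counted. It was met by 5439 of 11828 genes and gives no background for the 7. Pcgf6 (0.99, SE 0.15, limma adjusted p = 0.000481), Dnmt3l (0.95, SE 0.19, limma adjusted p = 0.00217), E2f6 (0.87, SE 0.30, limma adjusted p = 0.0379) and Ehmt2 (0.64, SE 0.21, limma adjusted p = 0.0312) were higher in every KD library than in any control library. With overlap, Yaf2 (0.63, SE 0.22, limma adjusted p = 0.0402) and Trim28 (0.60, SE 0.20, limma adjusted p = 0.0309) were higher and Dnmt3b (-0.53, SE 0.19, limma adjusted p = 0.0409) was lower. In morulae 15 of 21 were above 0, where 51.6% of all genes were, with a median of 0.24 against 0.02. A limma adjusted p under 0.05 was reached by 2 of the 21. Here too all genes were counted only at an unadjusted limma p under 0.05, met by 3352 of 10989, which gives no background for the 2. Yaf2 (0.77, SE 0.17, limma adjusted p = 0.0158) was higher in every KD library, and Rnf2 (0.54, SE 0.15, limma adjusted p = 0.0425) was higher with overlap. Whether the silencing genes differ from all genes was not tested. Across control 2-cell embryos and morulae, 5 of 24 were called raised and 10 lowered, a share near the 62.2% of all genes called, led by E2f6 (3.04), Dnmt3l (1.95) and Hdac2 (1.76), and Smchd1 (-2.12), Uhrf1 (-1.68) and Mga (-1.54). E2f6 passed the filter through the morulae alone; without the filter it was also called (adjusted p = 1.75e-06). In KD embryos 6 of 24 were called raised and 6 lowered, where 63.6% of all genes were called, led by E2f6 (2.60), Dnmt3l (2.42) and Hdac1 (2.23), and Mga (-1.92), Smchd1 (-1.83) and Uhrf1 (-1.83). Here E2f6 passed through the morulae alone and Uhrf1 through the 2-cell embryos alone, and both were also called without the filter (adjusted p = 0.000130 and 8.29e-05). From control morulae to blastocysts 1 of 23 was called raised and 3 lowered, where 26.2% of all genes were called. Uhrf1 was raised (1.65) and Hdac1 (-1.71), Pcgf6 (-1.50) and E2f6 (-1.20) were lowered. Ubr2, whose protein binds Tex19.1, did not exceed 0.999 FPKM in any library and was not tested.

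The genes most like the Tex19 pair were found by the Euclidean distance of gene-centred log2(FPKM + 1) over 22 libraries, among 15697 genes. Those nearest to Tex19.2 were Hyal2 (distance 2.48), Txnrd1 (2.72) and Alpl (2.87), against a median distance of 6.92 over all genes. These distances include the blastocysts that chose Tex19.2. Those nearest to Tex19.1 were Polr2m (1.96), Xab2 (2.09) and Psmd13 (2.12), and those nearest to Dazl were Gm12612 (1.25), Nrn1l (1.31) and Rilpl2 (1.35).

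RefSeq promoters of GRCm38.p6, from 250 bases before to 50 after the start, were found for all 10 genes, with 2 for Stk31, of which the first was counted. They held 2 to 29 CpG dinucleotides with a median of 18, where 27025 promoters of the same length had a median of 7 and quartiles of 3 and 21. The letters TCCCGC or GCGGGA, which E2F6 is known to bind, were searched on both strands and were in 4 of 10 promoters and in 20.0% of all promoters. The E-box CACGTG, a palindrome that MGA with MAX can bind, was in 5 of 10 and in 7.24% of all. These matches are descriptions and say nothing of binding.

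The promoters of the Tex19 genes are shown because both genes were higher in KD blastocysts, and that of Slc25a31 because it was lowered in KD morulae; capitals mark the letters above. Tex19.2 at chr11:121118628-121118927 (minus strand) held 2 CpG and no match, Tex19.1 at chr11:121145893-121146192 (plus strand) held 16 CpG and 1 match to GCGGGA, and Slc25a31 at chr3:40708621-40708920 (plus strand) held 22 CpG, 1 E-box and 1 match to TCCCGC.
Tex19.2: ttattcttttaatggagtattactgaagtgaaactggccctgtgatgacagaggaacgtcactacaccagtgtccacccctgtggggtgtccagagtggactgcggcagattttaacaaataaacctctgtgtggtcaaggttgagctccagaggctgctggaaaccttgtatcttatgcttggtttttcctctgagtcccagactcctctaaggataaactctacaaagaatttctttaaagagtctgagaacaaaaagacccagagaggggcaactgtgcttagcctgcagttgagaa
Tex19.1: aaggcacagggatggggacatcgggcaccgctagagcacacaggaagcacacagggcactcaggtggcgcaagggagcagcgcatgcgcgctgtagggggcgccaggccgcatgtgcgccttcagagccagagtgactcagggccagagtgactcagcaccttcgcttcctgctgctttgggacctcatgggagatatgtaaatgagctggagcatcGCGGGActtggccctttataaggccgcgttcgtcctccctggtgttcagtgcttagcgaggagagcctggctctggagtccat
Slc25a31: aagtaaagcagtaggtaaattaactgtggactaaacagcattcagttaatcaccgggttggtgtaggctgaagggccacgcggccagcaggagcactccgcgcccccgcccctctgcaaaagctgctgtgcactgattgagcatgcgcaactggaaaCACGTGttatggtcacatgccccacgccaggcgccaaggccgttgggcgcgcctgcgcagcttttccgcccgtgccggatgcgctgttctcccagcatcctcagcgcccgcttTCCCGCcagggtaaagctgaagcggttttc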

How the data were processed

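The authors deposited FPKM per gene, made with STAR on mm10 and StringTie 2.1.4 as the submitters' processing notes give it; these were used as they are, and 0 value columns lacked a sample. Groups and replicate numbers came from sample titles. Each library was scaled by its own factor (median of ratios to the geometric mean over the libraries compared, between 0.908 and 1.24), and log2 values with a pseudocount of 1 were fitted with limma 3.58.1 in R 4.3.3 (lmFit, eBayes with trend), without covariates. Adjustment was by Benjamini-Hochberg over all genes tested. The paper states that its experiments were repeated, but not whether replicate libraries came from separate collections of embryos. Part of the spread of replicates, which the p-values rest on, may therefore be technical. Sequences were handled with Python 3.11.15, numpy 2.4.6, pandas 2.3.3 and Biopython 1.88, and figures with matplotlib 3.10.9. Of 55335 identifiers, 54587 matched the GRCm38 annotation (GENCODE) in the same version.

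The members and lists were chosen with earlier results of these data known. Named genes were all members, H2afz and H2afv, the 3 raised and 3 lowered called genes with the largest change among other germline and among silencing genes per comparison, relatives and partners of members, and the 3 nearest genes of Tex19.1, Tex19.2 and Dazl; Gtsf1l, Sohlh2 and Prdm14 in KD blastocysts, Chpt1, the silencing genes short of a call and the called stage markers Nanog, Krt18, Zfp352 and Tcstv3 were added to these once their values had been seen. Which called genes passed the filter through 1 group alone was counted, and the values of called genes without the filter were listed, after the results were known. The fits between 2 groups were tested on data simulated with an absolute log2 fold change of 2 in 200 genes. These were drawn only from genes with a mean above 3 on the log2(FPKM + 1) scale in the first group, with independent normal noise. Of the 200, 95% to 98% were recovered, with 1 to 5 false calls. For KD against control 2-cell embryos 95% were recovered, with 5 false calls, yet the measured fall of H2afz was not called there. The recovery says nothing of lower genes, such as Tex101 and Tex19.2. Library factors rescaled to a geometric mean of 1 were also run, after the first results were known and because a description of the same data gave factors on that scale; they gave 395 called genes in KD morulae and 1640 in KD blastocysts in place of 387 and 1626. The unscaled factors, which were run first and fit the planned test, were kept.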

Additional observations from a re-analysis of the deposited data

Results flagged for a closer look

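In 40 groups of 4 libraries, 10 genes in 4 groups, 3 had a library far from the others on the log2(FPKM + 1) scale, where chance alone gives about 1 in 20. The rate does not apply to 2 of them, of Taf7l, since with 3 libraries at 0 any value above 0 stands apart. Sycp3 was at 12.2 FPKM in control morula replicate 1, below the other 3. Taf7l was at 0.0937 FPKM in control morula replicate 2 and at 0.0324 FPKM in control blastocyst replicate 1, while the other 3 libraries of each group were listed at 0.

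The interaction term of limma called the KD effects of 2-cell embryos and morulae unequal for Tex101 (-1.75), Slc25a31 (-1.55), Gtsf1l (-1.54) and Hormad1 (1.30), all on the log2 scale. These calls came at adjusted p of 0.0299, 0.0311, 0.0149 and 0.0325. Neither the call of Tex101 nor that of Slc25a31 held without the filter on low FPKM, and they were lost in 5 and 8 of 14 cases when 1 library was left out. The number of other germline genes called fell from 2 to 1 in 7 of these cases.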

How the results depend on the processing

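No direction was reversed in any called result. With a pseudocount of 0.1, 789 genes in KD morulae and 2477 in KD blastocysts were called, 11 of them other germline genes in blastocysts, and the interaction of stage and KD called 1 member, as Tex101 was lost. Without the filter on low FPKM, 169 genes were called in KD morulae with 1 member and 2 other germline genes, and the interaction called 72 genes, 0 members and 1 other germline gene. With FPKM as deposited the interaction called 5 other germline genes, and the share of raised genes among those called moved from 28.2% to 14.3% in KD morulae, where the median of all genes moved from 0.02 to -0.09, and from 30.8% to 20.9% in the interaction. The cause of these shifts was not tested.

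Leaving out 1 library at a time gave 0 to 3 called genes in KD 2-cell embryos, 18 to 34 other germline genes and 3 to 6 members between KD stages, and 84 to 279 genes, 1 to 5 other germline genes and 0 to 4 members for the interaction. The counts between KD stages were 18, 20 and 19 other germline genes without 2-cell KD replicates 1, 2 and 4, and 3 members without replicate 1. For the interaction, 279 genes came without morula control replicate 1, 84 without morula KD replicate 1 or 2, 92 and 114 without 2-cell KD replicates 1 and 4, and 105 and 108 without morula control replicates 7 and 8. Between KD stages, a group left with 2 libraries cannot alone bring a gene past the filter, so fewer genes were tested.

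Same-numbered control and KD libraries correlated in their deviations at a mean of 0.15, 0.14 and 0.08 in 2-cell embryos, morulae and blastocysts, with pairs down to 0.01 and -0.11, and 2-cell control replicate 2 correlated better with KD replicate 1 than with its own number, so single numbers do not pair them. Ranges of numbers did group libraries: in morulae all 6 control and KD pairs of the same range were positive (0.09 to 0.35) and all 6 of different ranges negative (-0.28 to -0.09), and in 2-cell embryos 5 of 6 were positive and 5 of 6 negative. Blastocysts did not show this, with 6 of 10 positive within a range. With the replicate number as a block, 514 genes and 1 member were called in KD morulae; Asz1 was at -0.91 (adjusted p = 0.00460), short of the size needed, so its call was lost. The range of replicate numbers as a term and rescaled library factors, both chosen after seeing the data, changed no call of a member; rescaled factors gave 8 in place of 7 other germline genes in KD blastocysts. Depth in reads is unknown and limits all low values, above all those of Taf7l, Tex101 and Tex19.2 in 2-cell embryos.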
